A study of Mus musculus with 9 samples.

Results

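Bile acid transport and sensing were represented by 10 listed genes: Slc51a, Slc51b, Slc10a2, Fabp6, Fgf15, Nr1h4, Nr0b2, Gpbar1, Abcc2 and Abcc3. They were taken by name, with every probe set that the array annotation pairs with that gene alone. The list was chosen with earlier results of these data known, so its counts beside the shares of all genes are descriptions. Of the 10, 9 had a probe set, 1 each, among 18194 annotated genes, and no such probe set was found for Gpbar1, the membrane bile acid receptor, which has no value here. Of these 9, 5 passed the filter on low values (Slc51a, Slc51b, Fabp6, Nr1h4 and Abcc3) and were tested among 11274 genes. The filter asked for a log2 value of 4 or more on at least 3 arrays. Slc10a2, Fgf15, Nr0b2 and Abcc2 did not pass it and are given as values without a test. The RNA came from colonic mucosa of male C57BL/6 mice aged 6 weeks, separated from the deeper wall by injecting PBS under it, and was hybridised to 9 Affymetrix arrays. The 3 groups of 3 arrays were wild-type mice (WT), mice that lack the gastrin gene (Gas-/-) and hGas transgenic mice (hGas), in all of which the labels name no treatment. The labels give neither the promoter of the transgene nor the number of founder lines, and do not state that the replicates were separate mice. The p-values therefore measure the spread between these samples, which may be technical.

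Bile acids are made from cholesterol in the liver, act as detergents in the small intestine and are mostly taken back in the ileum. An enterocyte imports them across its apical membrane through the sodium-dependent carrier ASBT (Slc10a2), binds them in the cytosol to FABP6 and exports them across the basolateral membrane through the heteromer of OSTα (Slc51a) and OSTβ (Slc51b). Inside the cell they activate the nuclear receptor FXR (Nr1h4), whose known target genes include Slc51a, Slc51b, Fabp6, Fgf15 and Nr0b2. The colon meets the bile acids that escape the ileum, many of them already altered by bacteria.

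The promoter windows of the 3 members that differed between hGas and Gas-/- and had a RefSeq entry, and that of Fabp6, are shown because FXR is known to bind hexamers of the kind searched here. The windows hold the 250 bases before the transcription start on build GRCm38.p6 of RefSeq, read 5′ to 3′ along the gene, and all of these genes lie on the minus strand. Slc51a is at chr16:32487880-32488129, Slc51b at chr9:65422774-65423023, Nr1h4 at chr10:89506659-89506908 and Fabp6 at chr11:43601563-43601812. Capitals mark the motif matches that a search found.
Slc51a: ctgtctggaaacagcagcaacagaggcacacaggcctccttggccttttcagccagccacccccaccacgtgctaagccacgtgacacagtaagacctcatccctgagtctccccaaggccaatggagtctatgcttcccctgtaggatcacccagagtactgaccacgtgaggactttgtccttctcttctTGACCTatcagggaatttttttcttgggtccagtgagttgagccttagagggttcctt
Slc51b: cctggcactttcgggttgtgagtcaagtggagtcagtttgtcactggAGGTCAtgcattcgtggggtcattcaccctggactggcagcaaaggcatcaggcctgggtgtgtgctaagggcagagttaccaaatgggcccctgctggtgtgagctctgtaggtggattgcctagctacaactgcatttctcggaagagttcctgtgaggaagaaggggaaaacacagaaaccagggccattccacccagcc
Nr1h4: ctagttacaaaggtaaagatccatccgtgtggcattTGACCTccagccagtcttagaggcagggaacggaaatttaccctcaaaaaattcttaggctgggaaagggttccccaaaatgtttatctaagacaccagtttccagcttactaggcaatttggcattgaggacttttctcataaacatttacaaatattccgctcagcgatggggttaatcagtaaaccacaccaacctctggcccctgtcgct
Fabp6: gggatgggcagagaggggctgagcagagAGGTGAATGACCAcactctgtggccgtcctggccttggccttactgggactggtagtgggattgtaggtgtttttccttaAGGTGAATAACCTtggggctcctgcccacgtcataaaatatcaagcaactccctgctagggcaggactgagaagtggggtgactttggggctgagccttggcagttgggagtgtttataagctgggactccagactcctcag
The search used the hexamer AGGTCA, read as AGGTCA or TGACCT on the strand shown, and the inverted repeat in which AGGTCA and TGACCT are separated by any 1 base. That repeat is its own reverse complement and contains the hexamer on both strands. Slc51a held the hexamer as TGACCT starting 58 bases before the start, Slc51b as AGGTCA at 203 bases, and Nr1h4 as TGACCT at 214 bases. Fabp6 held no hexamer, but 2 stretches that match the inverted repeat with 2 mismatches among its 12 defined letters, starting 222 and 142 bases before the start. Of the 8 members with a promoter entry, 4 held the hexamer, the fourth being Abcc2, against 14% of all 32851 promoters of the same length. The inverted repeat with at most 2 mismatches was found in 1 of the 8 members and in 0.959% of all promoters. These matches are descriptions of the letters in the windows and do not show that a factor binds there.

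Array medians ran from 4.13 to 4.16 on the log2 scale, and each array had 50.8% to 51.0% of its probe sets at log2 4 or more. Arrays of 1 group correlated at 0.990 to 0.996 over the genes tested and arrays of different groups at 0.971 to 0.992. The gastrin gene, Gast, lay at background on every array, between 1.93 and 2.14, so that probe set checks neither the deletion nor the transgene. WT replicate 3 stood apart from the other WT arrays on the second principal component (24.95 against 6.95 and 7.72). The 16 colon epithelium markers averaged 12.9 to 13.0 on each array, and 6 smooth muscle markers averaged 13.0 to 13.3, so the labelled mucosa held both kinds of transcript in every group. In RNA from whole mucosa, fewer cells of a type and less RNA per cell cannot be told apart.

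Between hGas and Gas-/- mucosa the basolateral exporter genes Slc51a and Slc51b, the receptor gene Nr1h4 and the pump gene Abcc3 rose, while Fabp6 did not pass the threshold. That made 4 of the 5 members tested called higher, beside 16.6% of all genes called in that comparison and 8.05% called higher. Slc51a passed the filter only through its hGas arrays, which fixed the direction of its difference, though not whether it was called. Of the other 4 members, 3 were called higher. Between Gas-/- and WT only Abcc3 was called and it fell, 1 of 5 members beside 12.1% of all genes. Between hGas and WT none of the 5 was called by limma, beside 1.16% of all genes (0.639% higher), and of the 4 other than Slc51a, 2 (Slc51b and Nr1h4) had an unadjusted p under 0.05, beside 14.2% of all genes. The comparisons share arrays, so their values are given side by side and not as repeats of each other.

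**Figure D1:**
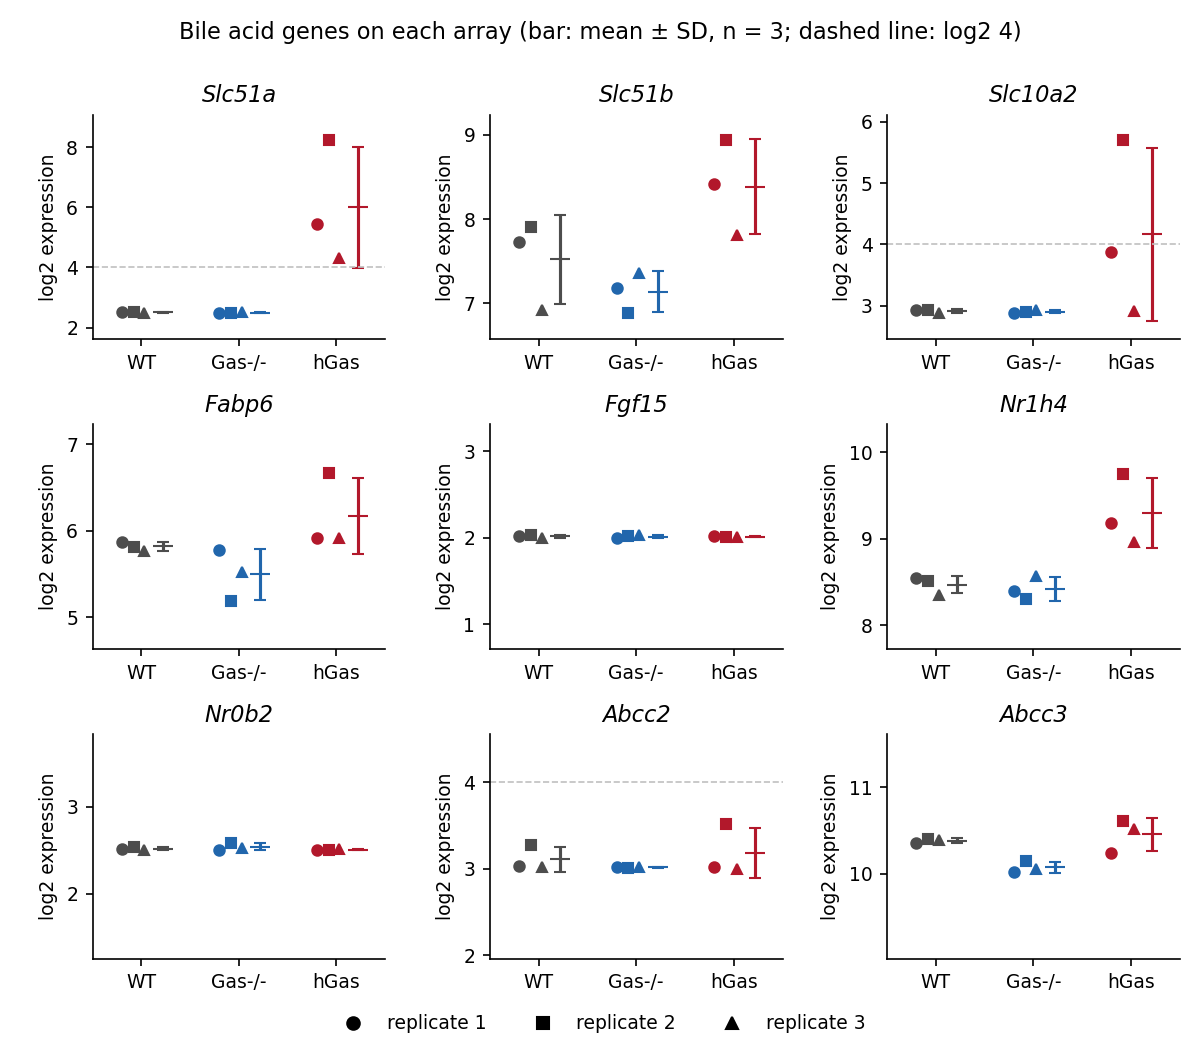
Log2 expression of the 9 bile acid genes with a probe set on each of the 9 arrays, by genotype, with the mean and SD of 3 arrays beside the points; the dashed line marks log2 4. Slc51a lay between 2.47 and 2.52 on all WT and Gas-/- arrays and between 4.32 and 8.22 on the hGas arrays, while Fgf15 and Nr0b2 stayed at background in each group.

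OSTα and OSTβ are obligate partners, since neither subunit transports bile acids alone. The Slc51a value was 2.52, 2.52 and 2.47 in WT replicates 1 to 3, and 2.48, 2.49 and 2.52 in Gas-/-. In hGas it was 5.45, 8.22 and 4.32. All 6 WT and Gas-/- arrays were thus near background, all 3 hGas arrays were above them, and the hGas arrays spread over 3.90 log2 units among themselves. The group means were 2.51 ± 0.03 in WT, 2.50 ± 0.02 in Gas-/- and 6.00 ± 2.01 in hGas, as log2 means ± SD of 3 arrays. Against Gas-/- the hGas mean was 3.50 higher (SE 0.76, 95% interval 1.80 to 5.20, limma adjusted p = 0.0125), an 11.3-fold difference whose size depends on the background level it is set against. Against WT it was 3.49 higher (SE 0.76, interval 1.79 to 5.19), which missed the threshold (limma adjusted p = 0.0695). WT and Gas-/- differed by 0.01, well inside the pooled error (interval -1.71 to 1.69).

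The size of the Slc51a difference rested on hGas replicate 2. Without that array hGas was 2.39 above Gas-/- (adjusted p = 0.000786) and 2.38 above WT (adjusted p = 0.0128), so the difference was smaller and the spread within hGas narrower. Without hGas replicate 3 the differences were 4.34 and 4.33, the latter also called (adjusted p = 0.0261). The call against Gas-/- held in all 9 fits that left out 1 array, whereas the call against WT was made in 2 of the 9. All of these fits kept the genes of the full fit, which Slc51a entered only through its hGas arrays. They therefore show how the size of the difference varied and do not check its direction.

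Slc51b, the smaller subunit, was well above background in each group. Its value was 7.73, 7.91 and 6.92 in the WT replicates, 7.18, 6.88 and 7.36 in Gas-/-, and 8.42, 8.93 and 7.81 in hGas. Each hGas array lay above each Gas-/- array, but hGas replicate 3 lay below WT replicate 2, so hGas and WT overlapped. The means were 7.52 ± 0.53 in WT, 7.14 ± 0.24 in Gas-/- and 8.38 ± 0.56 in hGas. The hGas mean was 1.25 above Gas-/- (SE 0.31, interval 0.55 to 1.94, 2.37-fold, adjusted p = 0.0232) and 0.86 above WT (SE 0.31, interval 0.17 to 1.56, adjusted p = 0.239). WT was 0.38 above Gas-/-, which did not pass the test (adjusted p = 0.483, interval for Gas-/- minus WT -1.07 to 0.31). The log2 difference of Gas-/- from WT was -0.19 without WT replicate 2 and -0.68 without WT replicate 3. The order of the means was hGas, WT, Gas-/-, and neither neighbouring pair passed the test. The call between hGas and Gas-/- was lost in 4 of the 9 fits without 1 array, namely without Gas-/- replicate 1 (adjusted p = 0.0669), Gas-/- replicate 2 (0.0759), hGas replicate 1 (0.0728) or hGas replicate 2 (0.0682).

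Slc10a2, the apical importer that defines ileal uptake, failed the filter because 1 array alone passed log2 4. It read 2.88 to 2.93 on all WT and Gas-/- arrays. In hGas it was 3.88, 5.69 and 2.92, so replicates 1 and 2 rose above every other array and replicate 3 did not. The hGas mean of 4.16 ± 1.41 therefore describes 2 arrays above the rest and 1 among them, and no test was made.

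Fabp6, the cytosolic bile acid carrier protein, read 5.88, 5.82 and 5.77 in WT, 5.78, 5.19 and 5.52 in Gas-/-, and 5.92, 6.67 and 5.92 in hGas. All 3 hGas arrays were above all others, but 2 of them by little, with a gap of 0.04 to the nearest WT array. The means were 5.82 ± 0.05, 5.50 ± 0.29 and 6.17 ± 0.44. The hGas mean was 0.68 above Gas-/- (SE 0.21, interval 0.21 to 1.14, 1.60-fold), just outside the threshold (adjusted p = 0.0550). It was 0.35 above WT (interval -0.12 to 0.82, adjusted p = 0.508), and Gas-/- was 0.32 below WT (adjusted p = 0.366). With quantile normalisation or robust eBayes the difference from Gas-/- was called (adjusted p = 0.0456 and 0.0472). Without hGas replicate 2 the hGas mean was 0.42 above Gas-/- and 0.10 above WT.

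Nr1h4 encodes FXR, the receptor through which bile acids control transcription. Its value was 8.54, 8.51 and 8.35 in WT, 8.39, 8.30 and 8.57 in Gas-/-, and 9.18, 9.75 and 8.96 in hGas. The 3 hGas arrays lay above all 6 others, which were intermixed. The means were 8.47 ± 0.10, 8.42 ± 0.14 and 9.30 ± 0.41. Against Gas-/- the hGas mean was 0.87 higher (SE 0.17, interval 0.49 to 1.26, 1.83-fold, adjusted p = 0.00765), and it was called in each of the 20 alternative fits, with values of 0.65 to 1.04. Against WT it was 0.83 higher (SE 0.17, interval 0.44 to 1.21, 1.77-fold, adjusted p = 0.0598). Without hGas replicate 3 that difference was 0.99 and called (adjusted p = 0.0350). Gas-/- and WT differed by 0.05 (interval for Gas-/- minus WT -0.43 to 0.34, adjusted p = 0.897).

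Of the known FXR targets in the list, Fgf15 and Nr0b2 could not be compared. Fgf15, the hormone that the ileum sends to the liver to restrain bile acid synthesis, stayed between 1.99 and 2.03 on all 9 arrays. Nr0b2, which encodes the repressor SHP, stayed between 2.50 and 2.59. For both genes every array was at background and no difference between genotypes could be detected with these probe sets.

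Abcc3 encodes MRP3, a basolateral pump for conjugated bile acids and glucuronides. It read 10.35, 10.40 and 10.39 in WT, 10.02, 10.14 and 10.06 in Gas-/-, and 10.24, 10.60 and 10.52 in hGas. The Gas-/- arrays were the lowest 3 of the 9, while WT and hGas overlapped. The means were 10.38 ± 0.03, 10.07 ± 0.06 and 10.45 ± 0.19. Gas-/- was 0.31 below WT (log2 difference -0.31, SE 0.08, interval -0.50 to -0.12, 1.24-fold lower, adjusted p = 0.0441). That call sat close to the threshold and was lost in 10 of 20 alternative fits, with adjusted p from 0.00543 to 0.144 over the 20. Of the 9 fits without 1 array, 7 lost it and those without hGas replicate 1 or hGas replicate 2 kept it. Against Gas-/- the hGas mean was 0.38 higher (SE 0.08, interval 0.19 to 0.57, 1.30-fold, adjusted p = 0.0146). This call was lost without Gas-/- replicate 1 (adjusted p = 0.0585) or Gas-/- replicate 3 (adjusted p = 0.0530). Between hGas and WT the difference was 0.07 (interval -0.12 to 0.26, adjusted p = 0.761).

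Abcc2 encodes MRP2, the apical counterpart of that pump. It was at 3.03, 3.27 and 3.02 in WT, 3.02, 3.01 and 3.02 in Gas-/- and 3.03, 3.52 and 3.00 in hGas, all under log2 4. Replicate 2 was the highest array in both WT and hGas, and the groups overlapped.

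**Figure D2:**
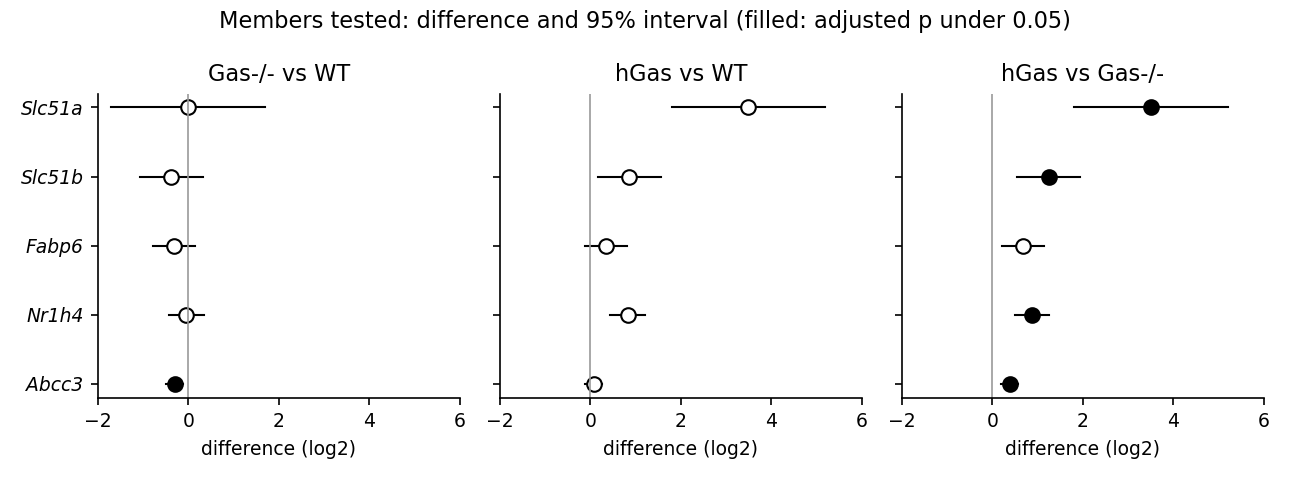
Differences in log2 expression for the 5 members tested in the 3 comparisons, with 95% intervals from limma; filled points have an adjusted p under 0.05. In hGas against Gas-/- the 4 differences other than that of Slc51a are above 0, from 0.38 for Abcc3 to 1.25 for Slc51b. Slc51a, at 3.50, passed the filter only through its hGas arrays, which fixed the direction of its difference. Only Abcc3, at -0.31, is called between Gas-/- and WT.

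In the moderated F test over the 3 genotypes, Nr1h4 (adjusted p = 0.0107), Slc51a (0.0152), Abcc3 (0.0265) and Slc51b (0.0482) were called and Fabp6 was not (0.117). Slc51a is left out of the counts and medians in the rest of this paragraph, since its entry through the hGas arrays fixed its direction there. Of the other 4 members tested, 3 were called in the F test, beside 15.8% of all genes. In hGas against Gas-/- the groups did not overlap for any of the 4, with hGas higher, beside 36.7% of all genes without overlap and 18.2% without overlap and higher. In hGas against WT this held for 2 of the 4 (Fabp6 and Nr1h4) beside 17.7%, and 9.35% in that direction (8.36% in the other). In Gas-/- against WT it held for 1, Abcc3, lower in Gas-/-, beside 31.1%, and 15% in that direction. The median difference over the 4 was 0.77 in hGas against Gas-/-, 0.59 in hGas against WT and -0.32 in Gas-/- against WT, where all genes had medians of 0.00, 0.01 and 0.01. These medians describe the members without testing them.

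The hGas arrays differed among themselves in a repeated way. Replicate 2 was the highest hGas array for each of the 5 members tested and for 7 of the 9 with a probe set, Fgf15 and Nr0b2 being the exceptions. Replicate 3 was the lowest for Slc51a, Slc51b and Nr1h4, and replicate 1 for Fabp6 and Abcc3. In WT, replicate 3 was the lowest for 4 of the 5, with Slc51b at 6.92 against 7.73 and 7.91. Slc51a is among these 4, but its WT values lay at background within 0.05 of each other. WT replicate 3 was also the array that stood apart on the second principal component.

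Further genes of bile acid handling came from a list of 45, of which 41 had a probe set and 23 passed the filter. In hGas against Gas-/- 4 of the 23 rose and 2 fell, beside 8.05% and 8.51% of all genes. In Gas-/- against WT 1 rose and 1 fell, beside 6.63% and 5.48%, and in hGas against WT none was called by limma, with 11 of the 23 at an unadjusted p under 0.05, beside 14.2% of all genes. The median differences over the 23 were 0.08, -0.06 and -0.02. Of the 18 that had a probe set but failed the filter, 17 lay under log2 4 on every array. These included Cyp7a1 and Cyp8b1, the liver enzymes that begin bile acid synthesis and set its products, at 2.21 to 2.25 and 2.08 to 2.12.

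Ppara, which encodes the fatty acid receptor PPARα, was the largest rise of that list in hGas against Gas-/-. It read 6.40, 6.46 and 6.47 in WT, 6.20, 6.05 and 6.20 in Gas-/-, and 6.88, 7.79 and 7.03 in hGas. All 3 hGas arrays were above all others. The hGas mean exceeded Gas-/- by 1.09 (SE 0.20, 2.12-fold, adjusted p = 0.00509), a call kept in all 9 fits without 1 array, and exceeded WT by 0.79 (adjusted p = 0.0945). Its 3 probe sets gave 1.09, 1.21 and 0.85 for hGas against Gas-/-.

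Among the export pumps, Abcb1a, which encodes the apical drug pump P-glycoprotein, fell by 0.59 in Gas-/- against WT (SE 0.08, adjusted p = 0.00169). Its values were 12.45, 12.52 and 12.48 in WT, 12.02, 11.83 and 11.82 in Gas-/- and 12.01, 12.34 and 12.25 in hGas, so every Gas-/- array was below every WT array. Between hGas and Gas-/- it was 0.31 higher and called (adjusted p = 0.0344), although the groups overlapped. That call was lost in 9 of 20 alternative fits, including those without WT replicate 1, Gas-/- replicate 2 or 3, or hGas replicate 2 or 3. The difference was 0.24 to 0.41, with adjusted p up to 0.118, over the fits without 1 array. Abcg2, the apical pump BCRP, was 0.44 higher in hGas than in Gas-/- (SE 0.08, 1.36-fold, adjusted p = 0.00612) and was called in all 9 such fits. Abcg5, a subunit of the sterol pump that returns plant sterols to the lumen, was lower in hGas by 1.37 (log2 difference -1.37, SE 0.39, 2.58-fold lower, adjusted p = 0.0409). The call of Abcg5 was lost in 9 of 20 alternative fits, including those without any 1 of the Gas-/- arrays or without hGas replicate 1 or 3. Over the fits without 1 array its difference was -1.66 to -1.11, with adjusted p up to 0.141. Its WT values of 6.83, 6.68 and 8.22 differed more among themselves than from Gas-/-. Abcc4, a basolateral pump, was not called in any of the 3 comparisons, although without hGas replicate 3 it was lower in hGas than in Gas-/- (log2 difference -0.30, adjusted p = 0.0302).

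Of the enzymes, Cyp3a13, an intestinal cytochrome of the family that hydroxylates bile acids and drugs, rose by 0.54 in Gas-/- against WT (SE 0.10, 1.46-fold, adjusted p = 0.00682). Both this rise and the fall of Abcb1a between Gas-/- and WT were called in all 20 alternative fits. Cyp27a1, the mitochondrial sterol hydroxylase of the alternative synthesis route, was 0.51 lower in hGas than in Gas-/- (log2 difference -0.51, SE 0.15, adjusted p = 0.0424). Hsd3b7, a later enzyme of synthesis, was 0.26 higher there (SE 0.07, adjusted p = 0.0321). The call of Cyp27a1 was lost in 8 of 20 alternative fits, including those without WT replicate 2, Gas-/- replicate 1 or 3, or hGas replicate 1 or 3. Over the fits without 1 array its difference was -0.64 to -0.39, with adjusted p up to 0.143. The call of Hsd3b7 was lost in 5 of 19, including those without any 1 of the Gas-/- arrays or without hGas replicate 2. Its difference was 0.20 to 0.30, with adjusted p up to 0.109, over the fits without 1 array. In all, 4 of 11 synthesis genes passed the filter.

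Apart from Ppara, the tested genes of the wider list that encode bile acid receptors or partners and regulators of FXR did not pass the test in any comparison of the fit reported. Vdr, the vitamin D receptor that also binds lithocholic acid, was 0.24 lower in hGas than in WT (log2 difference -0.24, interval -0.46 to -0.03, adjusted p = 0.282). Nr1i2, the xenobiotic receptor PXR, differed by -0.17 between hGas and Gas-/- (interval -0.38 to 0.05, adjusted p = 0.275), and Rxra, the obligate partner of FXR, by 0.17 (interval 0.02 to 0.32, adjusted p = 0.123). Hnf4a, an epithelial regulator, differed by -0.04 there (adjusted p = 0.665) and by -0.10 in Gas-/- against WT (adjusted p = 0.269) on its brightest probe set. Its other 3 probe sets gave -0.38, -0.10 and -0.53 for Gas-/- against WT, and the mean of the 4 was called there (log2 difference -0.28, adjusted p = 0.0160). Nr5a2, the nuclear receptor LRH-1, was 0.42 higher in hGas than in Gas-/- on its brightest probe set (adjusted p = 0.120), but its 3 probe sets above background disagreed, at 0.42, 0.57 and -0.77. That difference was called with only the 6 arrays compared (adjusted p = 0.00676) or without WT replicate 2 (adjusted p = 0.00680), and without that array Nr5a2 was also called in Gas-/- against WT (log2 difference -0.41, adjusted p = 0.0176). The receptor of FGF15, made of Fgfr4 and Klb, differed by 0.27 and -0.36 between hGas and Gas-/- (adjusted p = 0.162 and 0.383), and without Gas-/- replicate 3 Fgfr4 was called there (difference 0.42, adjusted p = 0.0206) and in Gas-/- against WT (log2 difference -0.37, adjusted p = 0.0394).

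**Figure D3:**
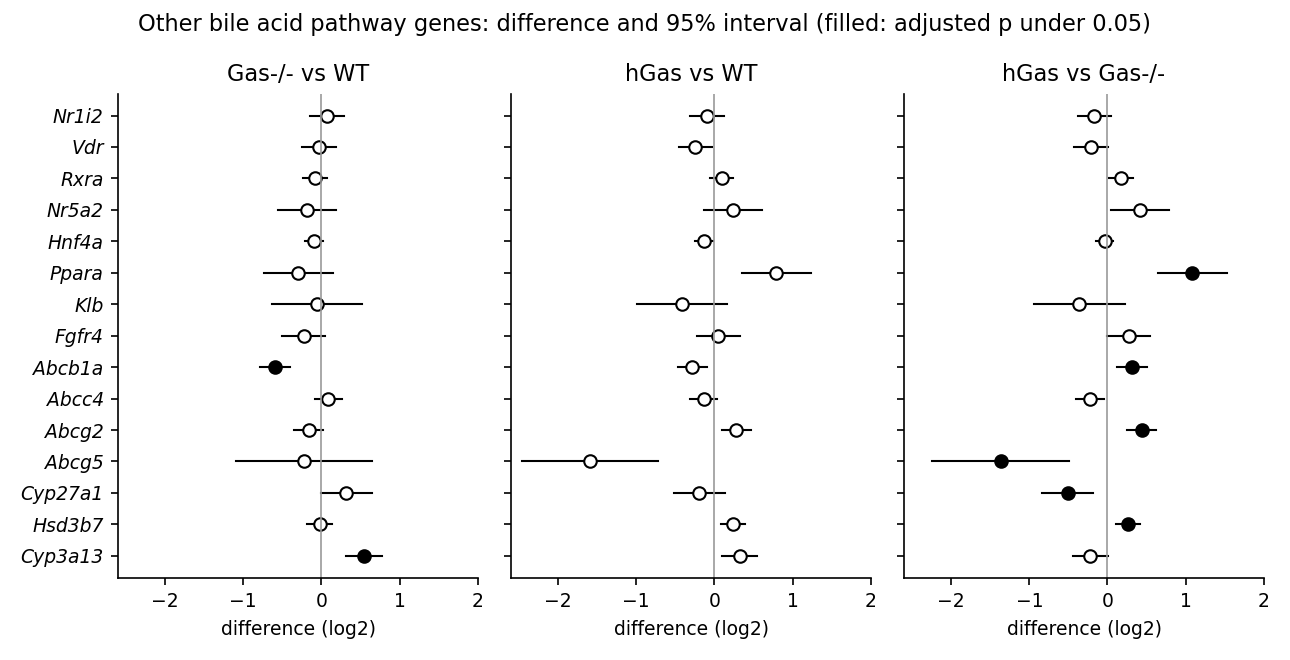
Differences in log2 expression with 95% intervals for the 15 named genes of the wider bile acid list in the 3 comparisons; filled points have a limma adjusted p under 0.05. Filled points are Abcb1a (-0.59) and Cyp3a13 (0.54) for Gas-/- against WT, none for hGas against WT, and 6 for hGas against Gas-/-, from -1.37 for Abcg5 to 1.09 for Ppara.

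For each of the 4 members called in a comparison, the 3 most similar genes were found by the root mean square difference of centred log2 values over the 9 arrays. The closest to Slc51a was Osr2, a transcription factor gene, at 0.244, where the spread of Slc51a around its own mean was 1.90. Prap1, a secreted epithelial protein gene, followed at 0.633 and Hoxb6, a positional homeobox gene, at 0.700. Osr2 read 2.23 to 2.49 on the 6 WT and Gas-/- arrays and 5.58, 7.45 and 4.34 on the hGas arrays, so its high and low arrays were those of Slc51a. The closest to Slc51b were Slc35d1 (0.219), St3gal1 (0.253) and Cyp2d26 (0.274), against a spread of 0.646 for Slc51b itself. Those closest to Nr1h4 were Ide (0.142), Rhbdl3 (0.144) and Nnt (0.145), against 0.452, and those closest to Abcc3 were Kdr (0.0572), Rtn4ip1 (0.0734) and Mogs (0.0742), against 0.191. Of the genes close to Abcc3, Mogs fell by 0.34 in Gas-/- against WT (adjusted p = 0.00361) and Rtn4ip1 fell by 0.32 (adjusted p = 0.0443), whereas Kdr differed by -0.26 and was not called (adjusted p = 0.235).

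**Figure D4:**
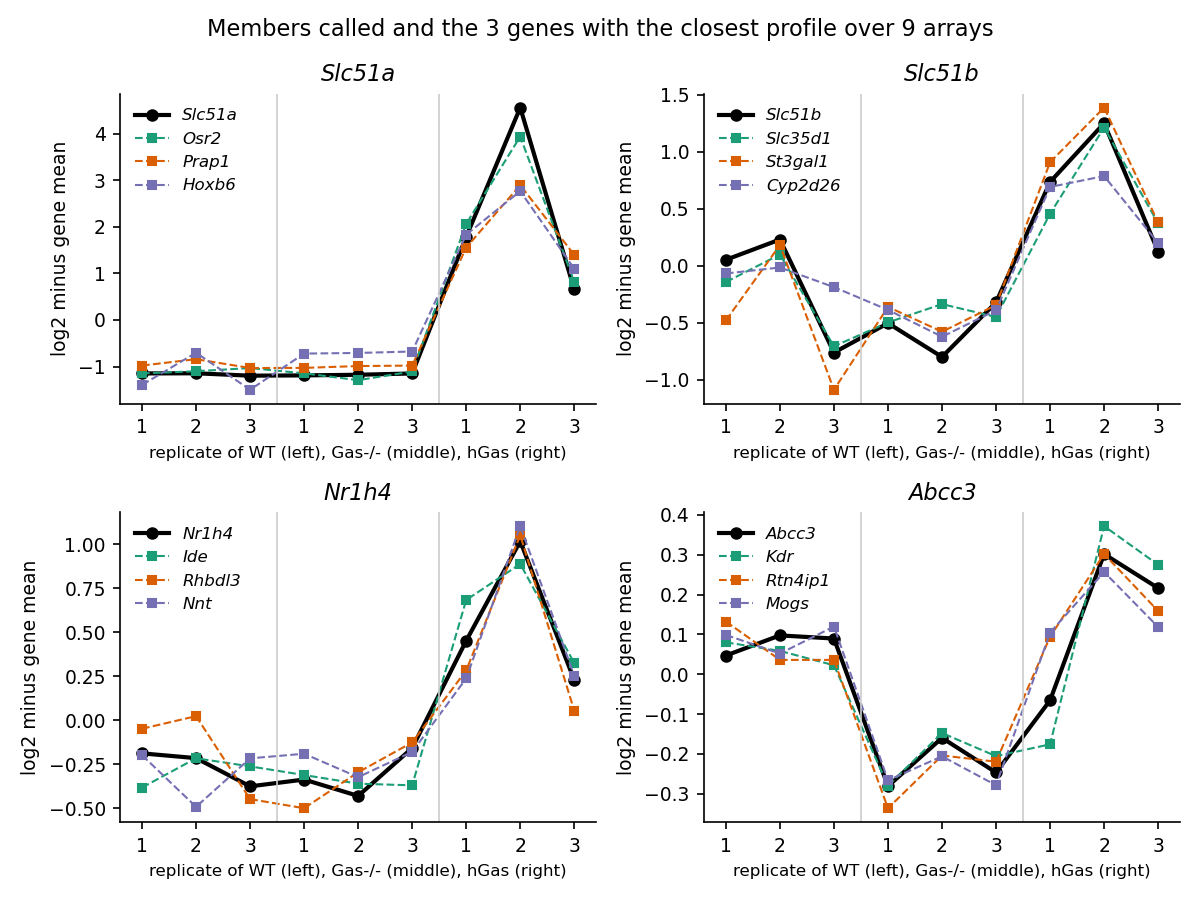
Centred log2 values (value minus the mean of the gene) over the 9 arrays for the 4 members called in a comparison, in black, with the 3 genes of closest profile, dashed. Slc51a and Osr2 share a peak on hGas replicate 2 and differ by 0.244 log2 units root mean square over the arrays.

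Some markers of colon region moved with the same arrays. The 6 proximal colon markers with a probe set averaged 5.62 to 6.18 in WT, 6.16 to 6.22 in Gas-/- and 6.95 to 8.24 in hGas. Within hGas the mean was 7.36, 8.24 and 6.95 in replicates 1 to 3, with replicate 2 highest and replicate 3 lowest, as for Slc51a, Slc51b, Nr1h4 and Slc10a2. Of the 5 such markers tested, Hoxb6, Osr2 and Prap1 lay under log2 4 on all 6 WT and Gas-/- arrays and passed the filter only through their hGas arrays. There they read 5.10 to 6.77, 4.34 to 7.45 and 5.69 to 7.19, so their calls as higher in hGas are not counted against the share of all genes. Of the other 2 tested, Cyp2c55 rose by 0.73 in hGas against Gas-/- (adjusted p = 0.00412) and Ang4 differed by -1.72 (adjusted p = 0.114), and neither was called in hGas against WT. The median difference of these 2 was -0.07 in hGas against WT and -0.50 in hGas against Gas-/-. The higher list mean in hGas thus lay in Hoxb6, Osr2 and Prap1. Hoxb7 was near background in each group. The 7 distal colon markers averaged 7.39 to 7.54 in WT, 6.88 to 7.07 in Gas-/- and 6.73 to 6.89 in hGas. Of 6 tested, 2 fell in hGas against WT (Scnn1g and Fxyd4, both of sodium handling), beside 0.523% of all genes, and 3 fell in Gas-/- against WT (these and Scnn1b), beside 5.48%. In hGas against Gas-/-, where the members were called, 2 of the 6 fell beside 8.51% of all genes, the homeobox genes Hoxa13 by 0.60 (adjusted p = 0.0150) and Hoxb13 by 0.41 (adjusted p = 0.0267). The part of colon region in the differences of the bile acid genes was not tested.

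Small intestinal markers were examined because Slc10a2, Fabp6 and the OST genes are strongest in the ileum. The 19 with a probe set averaged 4.55 to 4.78 in WT, 4.60 to 4.70 in Gas-/- and 4.82 to 4.94 in hGas. Of these, 11 were near background in every group, among them Apoa1, Apoa4, Apoc3, Fabp1 and Lct, which define small intestinal enterocytes and stayed under log2 4 on all 9 arrays. Of 8 tested, 3 rose in hGas against Gas-/-: Alpi, a brush border phosphatase gene, by 2.72, Fabp2, a fatty acid binding protein gene, by 1.50, and Apob by 0.52, beside 8.05% of all genes called higher there. In hGas against WT none of the 8 rose and 1 fell, beside 0.639% and 0.523% of all genes. There 5 of the 8 had an unadjusted limma p under 0.05, beside 14.2% of all genes. Without overlap 2 were higher and 3 lower, beside 9.35% and 8.36%. The 2 were Alpi, by 2.83, and Fabp2, by 1.46 (limma adjusted p = 0.0555 and 0.151). The gene called lower was Slc15a1, a peptide carrier gene, by 0.52. Slc15a1 also fell by 0.48 in Gas-/- against WT, as 1 of 8 beside 5.48%. The part of these cells in the hGas values was not tested.

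Enteroendocrine markers averaged 7.50 to 7.63 in WT, 7.45 to 7.66 in Gas-/- and 7.90 to 8.25 in hGas, and the rise called in hGas against WT was that of Nts, the neurotensin gene. Nts read 2.66 to 2.80 on all WT and Gas-/- arrays, near background, and 6.25 to 8.02 on the hGas arrays, through which alone it passed the filter. Its call is therefore not counted against the share of all genes. The median difference of the 9 enteroendocrine markers tested was 0.06 in hGas against WT, and Insl5 was 0.45 lower without overlap (limma adjusted p = 0.130). Tac1 rose by 0.69 in Gas-/- against WT, beside 6.63% of all genes. In hGas against Gas-/- Tac1 fell by 0.61 and Gcg rose by 0.62, beside 8.51% and 8.05%. B and plasma cell markers averaged 7.37 to 8.18 in WT, 8.85 to 9.34 in Gas-/- and 6.93 to 7.60 in hGas, and macrophage markers 7.73 to 7.83, 8.06 to 8.22 and 7.57 to 7.97. Gas-/- arrays were thus the highest in both immune lists and the lowest for Abcc3, and the part of immune cells in that difference was not tested. Of 7 B and plasma cell markers tested, 5 rose in Gas-/- against WT beside 6.63% of all genes. In hGas against Gas-/- 4 fell, beside 8.51%, and in hGas against WT 3 fell, beside 0.523%. In the latter, 4 were lower and 3 higher without overlap, beside 8.36% and 9.35%. Of 7 macrophage markers tested, 4 rose in Gas-/- against WT and 5 fell in hGas against Gas-/-, beside 6.63% and 8.51%. Of the 16 colon epithelium markers, 2 rose and 1 fell in Gas-/- against WT, beside 6.63% and 5.48%. In hGas against WT Car1 rose by 0.47 and Car4 fell by 0.36, as 1 and 1 beside 0.639% and 0.523%. In hGas against Gas-/- 1 rose and 2 fell, beside 8.05% and 8.51%. Epcam was 0.35 higher in Gas-/- than in WT and 0.36 lower in hGas than in Gas-/-, both called. The part of epithelial cells in the results was not tested. Fibroblast markers averaged 11.6 to 11.9 over the arrays. Of the 6, Pdgfra and Dcn rose in Gas-/- against WT, by 0.38 (adjusted p = 0.00491) and 0.26 (adjusted p = 0.0374), as 2 of 6 beside 6.63% of all genes. Both fell in hGas against Gas-/-, by 0.37 (adjusted p = 0.00455) and 0.29 (adjusted p = 0.0185), beside 8.51%. In each of these comparisons 4 of the 6 were higher. Col1a1 went the other way from Pdgfra and Dcn, by -0.34 and 0.35 without overlap. It was not called (limma adjusted p = 0.111 and 0.0807). The part of fibroblasts in the results was not tested. None of the 6 smooth muscle markers was called by limma, with 1 at an unadjusted p under 0.05 in Gas-/- against WT, 0 in hGas against WT and 2 in hGas against Gas-/-, beside 25.9%, 14.2% and 31.2% of all genes. The 3′ minus 5′ difference of the Gapdh control, a sign of RNA integrity, was -0.18 to -0.14 in WT, -0.12 to -0.09 in Gas-/- and -0.15 to -0.07 in hGas. That of the actin control was larger, at 0.76 to 0.89 in WT, 0.87 to 0.94 in Gas-/- and 0.88 to 0.94 in hGas. The part of RNA integrity in the results was not tested.

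**Figure D5:**
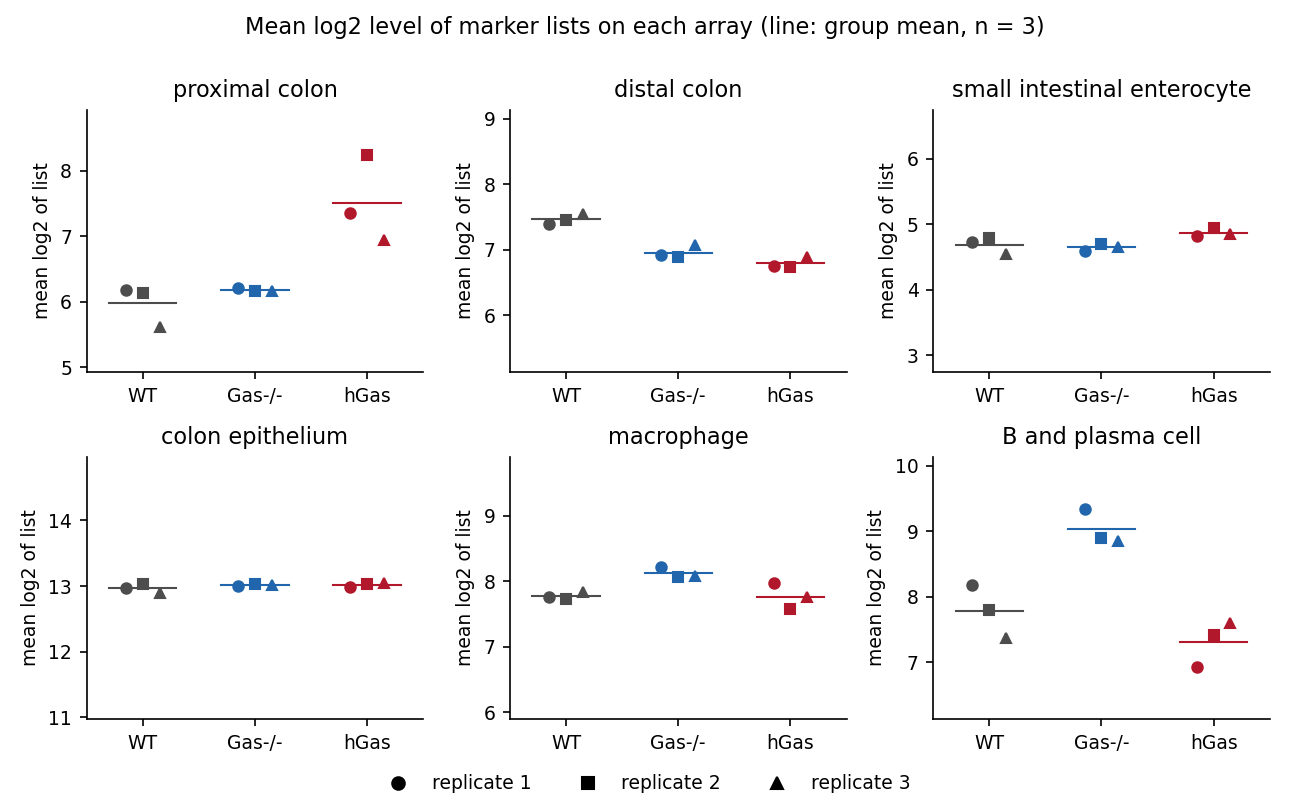
Mean log2 level of 6 marker lists on each array, by genotype, with the line at the mean of 3 arrays. The proximal colon list is highest in hGas, at 6.95 to 8.24, through Hoxb6, Osr2 and Prap1. The B and plasma cell list is highest in Gas-/-, at 8.85 to 9.34. The mean of the colon epithelium list lies at 12.9 to 13.0 throughout, although some of its genes were called in each comparison.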

How the data were processed

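The deposited values are log2 expression values of 45101 probe sets on 9 arrays, made by the authors with GCRMA (version not stated) per the submitters' processing notes. GCRMA corrects background from probe sequence, normalises by quantiles and summarises probes, so values under log2 4 hold little information and folds from them depend on the background model. No genome build is given in the sources used here. Of the probe sets, 34958 name 1 gene (34754 matched to RefSeq by Entrez number, 0 symbols changed), 932 several and 9160 none, beside 64 controls. Each gene was represented by its probe set of highest mean.

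A linear model of genotype over the 9 arrays was fitted by lmFit, then eBayes with trend (limma 3.58.1, R 4.3.3, data.table version 1.17.8; 6 residual and 3.47 prior degrees of freedom). Tests were 2-sided, adjusted by Benjamini-Hochberg over 11274 genes and called at 0.05. The number of arrays limits the precision. The code was tested on simulated data. The members and lists were chosen with earlier results of these data known. Named genes are all members, wider pathway genes called in a comparison or fixed by name, up to 4 genes of smallest F-test p per marker list, and the 3 genes closest to each called member. Markers near background are named after their values were seen, as are Ang4 and Hoxb13. For hGas and Gas-/-, same-numbered arrays deviated together (r = 0.117, 0.201 and 0.267 over genes tested), a pairing found in the data and not stated in the labels. The fit reported holds no block for it. Promoters came from RefSeq for 8 of 10 members. Figures used matplotlib 3.10.9 in Python 3.11.15. Filters, normalisation, probe set choice, eBayes settings, array weights, fewer arrays and a replicate block were varied.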

Additional observations from a re-analysis of the deposited data

How the results depend on the processing

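Over the 20 alternatives (fewer where a gene failed a filter), the 15 differences of the members gave 263 values on the same side of the threshold, 16 that lost a call, 8 that gained a call and 4 that changed sign, and the wider pathway genes gave 846, 31, 9 and 8. No member was called between Gas-/- and WT (count 0) with no filter, with the mean of probe sets or without the trend, and no member probe set (count 0) with no filter or without the trend. Between hGas and WT the genes called numbered 131 in the fit reported, 58 with no filter and 27 with only the 6 arrays compared, and 1 member, Nr1h4, was called with the stricter filter. Between hGas and Gas-/- 3 pathway genes were called with no filter. Leaving out 1 array at a time gave 888 (without Gas-/- replicate 1) to 1375 genes, 0 to 1 members and member probe sets and 2 to 3 pathway genes for Gas-/- against WT. For hGas against WT it gave 26 (without hGas replicate 1) to 104 genes, 0 to 2 members, 0 to 2 member probe sets and 0 to 1 pathway genes. For hGas against Gas-/- it gave 1219 (without Gas-/- replicate 3) to 1996 genes, 2 to 4 members, 1 to 4 member probe sets and 3 to 6 pathway genes.

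Sign changes occurred among differences near 0 that were not called. With the mean of probe sets they were Vdr (0.0145) and Nr5a2 (0.0313) for Gas-/- against WT and Hnf4a (0.0165) for hGas against Gas-/-. Leaving out 1 array moved Gas-/- against WT from -0.0252 to 0.000445 for Slc51a (above 0 without WT replicate 2 or Gas-/- replicate 1), from -0.124 to 0.0122 for Nr1h4 (without Gas-/- replicate 2), from -0.0868 to 0.0180 for Vdr, from -0.380 to 0.219 for Klb and from -0.503 to 0.265 for Abcg5 (each without WT replicate 3), and from -0.0470 to 0.131 for Nr1i2 and from -0.0515 to 0.00888 for Hsd3b7 (without Gas-/- replicate 1). It moved Abcc3 in hGas against WT from -0.00265 (without hGas replicate 2) to 0.181. The causes were not tested.

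With the replicate number as a block, 283 genes and 2 members (Slc51a, adjusted p = 0.0427, and Nr1h4, 0.0496) were called by limma between hGas and WT, but no member probe set was (count 0) when probe sets were tested in place of genes. The rule set for a pairing was that the deviations of every same-numbered pair correlate at over 0.1. For hGas and WT the values were 0.254, 0.0838 and 0.203, and for Gas-/- and WT 0.150, -0.00557 and 0.145. Both missed the rule at replicate 2 only, so it does not settle whether the numbers pair those arrays. Between hGas and Gas-/- the block changed no call of a member. Of the 9 arrays, 6 correlated best with their own number in both other groups. Slc51a has no value with the stricter filter or with probe sets designed for 1 transcript, and Fabp6 none with the stricter filter. Slc10a2, Fgf15, Nr0b2 and Abcc2 are too near background for these arrays to compare groups. For Slc51a, Hoxb6, Osr2, Prap1 and Nts, near background on every WT and Gas-/- array, the size of a difference depends on that background.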
